A study of Homo sapiens with 6 samples.

Results

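The genes described here are 42 genes of mitosis: cyclins and their kinase CDK1, the polo and aurora kinases, the spindle checkpoint, the kinetochore, the machinery of anaphase and cytokinesis, and condensin with other chromosome proteins. They were chosen by symbol from a list, kinesin motors were left out apart from CENPE, and all 42 were found among the 30741 genes of the expression table. RNA-seq was run on MOLM-13 cells, an established human line from acute myeloid leukaemia that is labelled as wild type, kept in RPMI-1640 medium with fetal bovine serum. One group of 3 libraries came from cells given 20 nM TSN for 48 h and the other group of 3 from cells given the solvent DMSO for 48 h. TSN is taken as toosendanin, the plant triterpenoid named in the title of the series, which also names DDX5, c-Myc and protein synthesis. The groups follow the sample titles, because the treatment field reads DMSO on all 6 samples, and the columns read as DMSO are named M0 in the table. The series uses a single cell line, and the text calls the libraries biological replicates without saying whether they came from separate cultures, so p-values measure the spread between these libraries.

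A cell enters mitosis when cyclin B activates CDK1, which the CDC25 phosphatases keep free of inhibitory phosphate. PLK1 and the aurora kinases then build the spindle, the checkpoint holds the anaphase-promoting complex (APC/C) back until each kinetochore is attached, and CDC20 and UBE2C let the APC/C mark securin and cyclin B for destruction. Most of these genes are transcribed late in the cell cycle, from promoters that carry a CHR element and CCAAT boxes, which MuvB complexes with B-MYB or FOXM1 and the factor NF-Y bind. Aurora A and PLK1 are drug targets in leukaemia, and TOP2A is the target of anthracyclines given for this disease.

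Values are FPKM, that is, fragments divided by exon length and by the size of the library, so genes of unlike length share a scale. The trends with exon length and the shared exons given below limit comparisons between genes. Depth was estimated at 37071362 to 50575370 fragments per library, which makes 1 fragment on 1 kb of exon worth 0.0198 to 0.027 FPKM. Of 10 myeloid markers, 8 reached 1 FPKM in every library, with MPO, an enzyme of primary granules, at up to 3668 FPKM. The summed myeloid markers ran from 3791 to 4077 FPKM in DMSO and from 2472 to 2540 in TSN, a sum made up mostly of MPO. MPO alone of the 9 myeloid markers tested passed, falling from 3567 ± 135.2 to 2020 ± 27.4 FPKM (limma adjusted p = 0.0221). The other myeloid markers tested did not pass, and they differed in both directions. ANPEP (CD13), SPI1 (PU.1), CSF1R and HOXA9 had positive log2 fold changes. ANPEP went from 221 ± 6.09 to 280.5 ± 15.3 FPKM and SPI1 from 78.3 ± 12.1 to 131 ± 45.6. CEBPA, FLT3, LYZ and CD33 had negative ones, like MPO. CEBPA went from 33.9 ± 5.80 to 20.9 ± 4.82 FPKM (limma adjusted p = 0.0840). Its groups did not overlap, and neither did those of MPO, ANPEP, SPI1, CSF1R and HOXA9, where 39.2% of all genes did not overlap. The part of these markers in the results below was not tested. HOXA9 and MEIS1 stayed under 1.14 FPKM. Of 12 markers of other lineages, 7 were in the table, and they summed to 8.57 to 9.27 FPKM in DMSO and 10.67 to 12.56 in TSN. Nearly all of that sum was EPCAM, at 3.22 to 3.98 FPKM over the 6 libraries, and PECAM1, at 4.09 ± 0.558 FPKM in DMSO and 6.40 ± 1.37 in TSN (limma adjusted p = 0.117), while CDH1 was at 0 in 5 libraries. DMSO 3 and TSN 3 stood apart from the other libraries of their groups. The median level of the genes tested was 2.97 on the log2(FPKM + 1) scale in TSN 3 and 3.30 to 3.46 in the other libraries.

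TSN moved 6 of the 41 mitotic genes tested. PLK1, CDC20 and AURKA fell, while CDK1, AURKB and UBE2C rose, and the other 35 did not pass. That share was close to the share over all genes: 6 of 41 members passed (14.6%), against 1706 of 11440 genes (14.9%), and in each direction 3 members passed (7.32%), against 7.71% of all genes higher and 7.20% lower. The median log2 fold change of the members was -0.22, and that of all genes tested was -0.10. The test was limma on log2(FPKM + 1), with p-values adjusted over all 11440 genes by the Benjamini-Hochberg method and a threshold of 0.05. A further 10 members did not overlap between the groups without passing, which gives 16 of 41 in all, where 39.2% of all genes did not overlap. TSN was higher in 7 of the 16 (16.2% of all genes) and lower in 9 (22.9% of all genes). At an unadjusted p under 0.05 stood 14 members, where 30.8% of all genes did. Adding the authors' criterion of an absolute log2 fold change over 0.584 left 5 members, where 13.3% of all genes remained, because CDK1 lay at 0.58. In bulk RNA, fewer cells in mitosis and less RNA per mitotic cell cannot be told apart.

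The number of calls depended on the libraries kept. PLK1 alone passed without DMSO 1 (2.78% of all genes passed) or without DMSO 3 (3.91%), and 0 members passed by limma without DMSO 2 (2.20%) or without TSN 1 (0.217%), with 10 and 11 members at an unadjusted p under 0.05. In these 4 fits the limma adjusted p of PLK1 was 0.0489 without DMSO 1, 0.0336 without DMSO 3, 0.0541 without DMSO 2 and 0.0603 without TSN 1. All 6 kept their calls without TSN 2, where 10 members passed (16.1% of all genes), and without TSN 3, where 11 passed (22.6%). The direction of the 6 was the same in every alternative fit, and the range of their log2 fold changes is given with each gene. Fits with 1 library fewer also have fewer degrees of freedom, and the cause of the lost calls was not tested. With no filter on low values 1 member passed (2.53% of all genes), with quantile normalization 6 (19.7%) and with library weights 31 (71.3%).

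**Figure D1:**
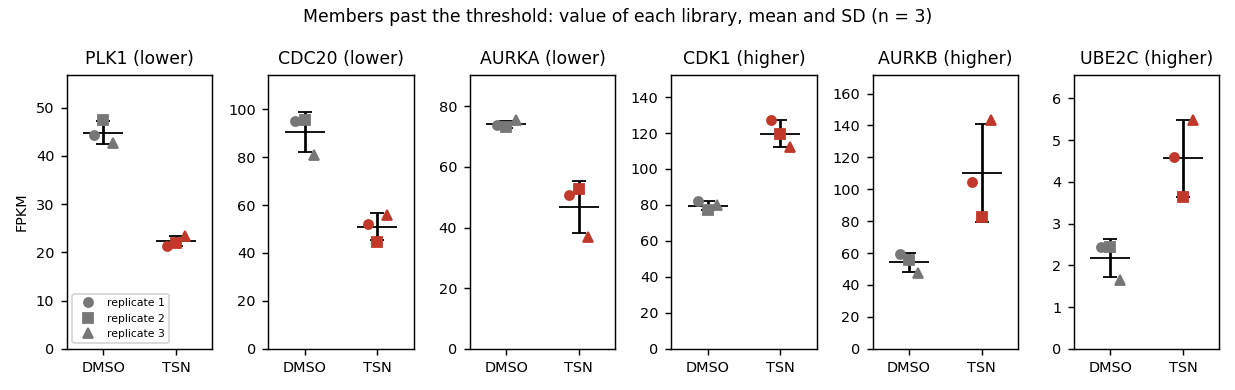
FPKM (vertical axes, each from 0) of the 6 members past the threshold in DMSO and TSN, with a symbol for each replicate, a bar for the mean and whiskers for the SD of 3 libraries. The groups do not overlap in any of the 6 panels, and the TSN values of AURKB, from 82.4 to 143.3 FPKM, are spread widest.

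PLK1, the polo kinase that drives centrosome maturation and mitotic exit (ENSG00000166851, chromosome 16, 23677656 to 23690367), stood at 44.40, 47.38 and 42.57 FPKM in DMSO 1, 2 and 3, and at 21.40, 21.93 and 23.42 FPKM in TSN 1, 2 and 3. Every TSN library lay far below every DMSO library, and the spread within each group was narrow (44.8 ± 2.43 and 22.2 ± 1.04, SD, n = 3). Its log2 fold change was -0.98 ± 0.12 SE with a limma adjusted p of 0.00547, and it ran from -1.09 to -0.88 over 17 alternative fits, 14 of which called it. Exons of PLK1 share 12.5% of their bases with other genes, chiefly AC008870.3 on the opposite strand, and whether counting used strand is not given here.

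CDC20, the activator of the APC/C and the target of the spindle checkpoint (ENSG00000117399, chromosome 1, 43358955 to 43363203), stood at 95.20, 95.38 and 80.70 FPKM in DMSO 1, 2 and 3 and at 52.26, 44.70 and 55.87 FPKM in TSN 1, 2 and 3. The lowest DMSO value lay above the highest TSN value. CDC20 fell by 0.82 ± 0.15 SE on the log2 scale (limma adjusted p = 0.0161), and 10 of 17 alternative fits called it, with log2 fold changes from -1.03 to -0.72.

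AURKA, aurora kinase A, which works at centrosomes and spindle poles (ENSG00000087586, chromosome 20, 56369389 to 56392337), held 73.72, 73.21 and 75.41 FPKM in the DMSO libraries and 50.81, 52.70 and 37.04 FPKM in TSN 1, 2 and 3. DMSO values were tight and TSN 3 was the lowest of all. The log2 fold change was -0.67 ± 0.16 SE (limma adjusted p = 0.0420), from -0.76 to -0.50 over 17 alternatives, of which 11 called it. TPX2, the protein that activates aurora A on the spindle, did not pass: it stood at 75.5 ± 7.94 FPKM in DMSO against 60.2 ± 19.6 FPKM with TSN, and TSN 2 (78.14) lay above DMSO 1 (69.25).

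CDK1, the kinase that starts mitosis (ENSG00000170312, chromosome 10, 60778331 to 60794852), was at 82.20, 77.06 and 79.73 FPKM in DMSO 1, 2 and 3 and at 127.11, 119.70 and 112.27 FPKM in TSN 1, 2 and 3. All TSN values lay above all DMSO values. CDK1 rose by 0.58 ± 0.12 SE on the log2 scale (limma adjusted p = 0.0261), with 0.51 to 0.68 over 17 alternatives and a call in 10.

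AURKB, aurora kinase B, the enzyme of the chromosomal passenger complex (ENSG00000178999, chromosome 17, 8204733 to 8210600), was at 59.23, 55.74 and 47.57 FPKM in DMSO 1, 2 and 3 and at 104.47, 82.43 and 143.28 FPKM in TSN 1, 2 and 3. TSN 3 was the highest library and DMSO 3 the lowest, so these libraries widened the difference. Its log2 fold change was 0.98 ± 0.22 SE (limma adjusted p = 0.0336) with all 6 libraries and 0.68 without DMSO 3 and TSN 3. Over 17 alternatives it ran from 0.68 to 1.17, and 10 of them called it.

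UBE2C, the ubiquitin-conjugating enzyme that starts chains for the APC/C (ENSG00000175063, chromosome 20, 45812576 to 45816957), had low values of 2.44, 2.44 and 1.65 FPKM in DMSO 1, 2 and 3 and 4.60, 3.63 and 5.48 FPKM in TSN 1, 2 and 3. The groups did not overlap, and DMSO 3 and TSN 3 again held the lowest and the highest value. UBE2C rose by 0.81 ± 0.19 SE on the log2 scale (limma adjusted p = 0.0358), a scale that understates changes at this level. Of 16 alternatives that kept the gene, 9 called it, with 0.57 to 1.07.

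Promoters of the called genes that matched the RefSeq table follow (all but AURKA and UBE2C). They are shown because the CHR element (TTTGAA or TTCGAA) and the CCAAT box mark promoters of late cell cycle genes and the members moved in both directions. Each is the 250 bases before the start site, 5′ to 3′ in the direction of the gene, from RefSeq on GRCh38.p14. Capitals mark CHR letters and CCAAT letters on either strand (TTCAAA and ATTGG are the same letters read on the other strand). Where RefSeq lists several start sites, the one nearest the 5′ end of the GENCODE gene is shown.
PLK1 (chr16:23678639-23678888, plus strand): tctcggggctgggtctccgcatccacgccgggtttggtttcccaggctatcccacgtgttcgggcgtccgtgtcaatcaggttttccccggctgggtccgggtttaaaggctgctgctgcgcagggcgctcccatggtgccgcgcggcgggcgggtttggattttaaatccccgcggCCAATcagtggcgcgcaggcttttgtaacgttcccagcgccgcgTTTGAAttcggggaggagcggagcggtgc
CDC20 (chr1:43358731-43358980, plus strand): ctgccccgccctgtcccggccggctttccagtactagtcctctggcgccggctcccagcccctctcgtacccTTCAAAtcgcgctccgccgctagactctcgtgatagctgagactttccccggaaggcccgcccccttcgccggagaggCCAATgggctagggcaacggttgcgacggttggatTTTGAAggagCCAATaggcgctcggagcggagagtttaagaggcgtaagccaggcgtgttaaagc
CDK1 (chr10:60778081-60778330, plus strand): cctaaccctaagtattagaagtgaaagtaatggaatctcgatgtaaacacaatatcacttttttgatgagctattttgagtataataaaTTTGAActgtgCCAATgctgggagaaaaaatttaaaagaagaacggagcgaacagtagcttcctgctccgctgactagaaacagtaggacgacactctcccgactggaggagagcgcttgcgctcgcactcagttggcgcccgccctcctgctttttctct
AURKB (chr17:8210250-8210499, minus strand): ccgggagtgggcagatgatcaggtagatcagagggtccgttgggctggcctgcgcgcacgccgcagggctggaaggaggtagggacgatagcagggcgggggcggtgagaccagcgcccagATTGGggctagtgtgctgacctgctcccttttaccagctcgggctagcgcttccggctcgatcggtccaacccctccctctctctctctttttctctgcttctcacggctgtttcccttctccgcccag
The lower genes PLK1 and CDC20 and the higher gene CDK1 all carry CHR letters and a CCAAT box in the windows shown. The AURKB window shown holds 1 CCAAT box and no CHR letters. It lies inside the GENCODE span of AURKB, which on the minus strand begins at 8210600, so it holds no bases before that position. The PLK1 window likewise lies inside the span of its gene, which begins at 23677656. Of the 42 members, 35 had promoters in the RefSeq table, in 49 windows of 300 bases (250 before to 50 after a start site). CHR letters stood in at least 1 window of 26 of the 35 members (74.3%) and of 19.5% of the 27305 genes of the table. CCAAT stood in 27 members (77.1%) and in 39.7% of all genes. The E2F core (TTCGCGC or TTGGCGC) stood in 7 members (20.0%, all genes 6.1%), among them CDK1, CDC25A and CCNB1, and the E-box CACGTG in 5 (14.3%, all genes 8.8%), PLK1 among them. Both strands were searched, the CCAAT box read as ATTGG can share letters with TTGGCGC, and a match in these windows is a description of the sequence.

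**Figure D2:**
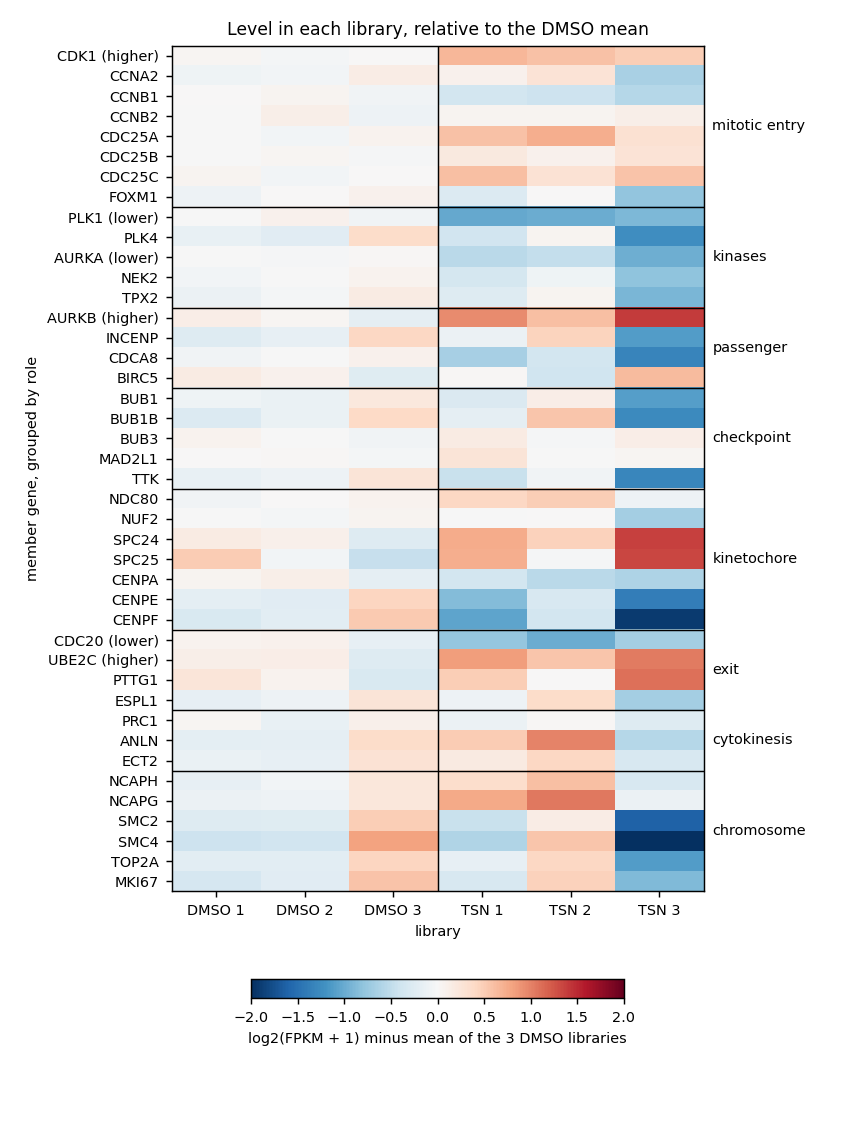
Level of the 42 members (rows, grouped by role) in each of 6 libraries (columns), as log2(FPKM + 1) minus the mean of the 3 DMSO libraries, with red above and blue below that mean and the colour scale ending at 2 on each side, which SMC4 in TSN 3 exceeds. PLK1 and CDC20 are blue and CDK1 and AURKB red in all 3 TSN columns, while other rows, such as SMC4 and BUB1B, are red in DMSO 3 and TSN 2 and blue in TSN 3.

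Genes of mitotic entry split, with CDK1 higher and its cyclins not. CCNB1, the main cyclin partner of CDK1, was at 83.63, 87.03 and 79.45 FPKM in DMSO 1, 2 and 3 and at 64.40, 62.53 and 55.70 FPKM in TSN 1, 2 and 3. No TSN value reached the DMSO values, but CCNB1 did not pass (log2 fold change -0.45 ± 0.12 SE, limma adjusted p = 0.0575). CCNB2, the second B-type cyclin, averaged 47.4 ± 3.55 FPKM with DMSO and 49.96 ± 1.41 FPKM with TSN, and the 95% interval of its log2 fold change ran from -0.21 to 0.36. CCNA2, the cyclin of S phase and early mitosis, had overlapping groups (30.1 ± 2.72 and 29.2 ± 9.32 FPKM). Its log2 fold change was -0.09 with all libraries and 0.26 without DMSO 3 and TSN 3.

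The phosphatases that free CDK1 from inhibition each had 3 TSN values above all 3 DMSO values, as did 16.2% of all genes, and none of them passed by limma (adjusted p from 0.0549 to 0.343, with 2 of the 3 at an unadjusted p under 0.05). CDC25A, which also acts at the start of S phase, was at 27.17, 26.35 and 28.86 FPKM in DMSO and at 41.84, 46.13 and 34.32 FPKM in TSN 1, 2 and 3 (log2 fold change 0.54 ± 0.15 SE, limma adjusted p = 0.0549). CDC25C, which acts at mitotic entry, went from 7.94 ± 0.317 to 11.6 ± 1.47 FPKM (0.49 ± 0.15 SE, limma adjusted p = 0.0752). CDC25B differed least, with 34.2 ± 0.869 and 39.0 ± 2.71 FPKM and a 95% interval of -0.10 to 0.47 on the log2 scale. FOXM1, the transcription factor of late cell cycle genes, stood at 42.1 ± 2.80 and 33.7 ± 9.28 FPKM (-0.35 ± 0.22 SE, limma adjusted p = 0.329). Exons of FOXM1 share 15.9% of their bases with another gene, ITFG2 on the opposite strand.

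Among kinases of the centrosome, PLK4, which starts centriole duplication, was at 13.28, 12.50 and 19.30 FPKM in DMSO and 11.13, 15.28 and 5.69 FPKM in TSN 1, 2 and 3. DMSO 3 and TSN 3 set both ends of its range, and the log2 fold change of -0.52 ± 0.35 SE with all libraries was 0.02 without them. NEK2, which splits centrosomes, did not overlap between groups (15.4 ± 0.734 and 11.6 ± 3.06 FPKM) and did not pass (limma adjusted p = 0.228). Of the 5 genes grouped here as centrosome and spindle kinases with TPX2, PLK1 and AURKA fell and the other 3 did not pass, and AURKB, the other aurora kinase, rose.

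Of the 4 subunits of the chromosomal passenger complex, which corrects faulty attachments and drives cytokinesis, AURKB rose and the other 3 did not pass. CDCA8 (borealin) stood at 40.17, 41.71 and 44.73 FPKM in DMSO and at 26.16, 32.47 and 16.29 FPKM in TSN 1, 2 and 3. Its groups did not overlap, and it did not pass with all libraries (log2 fold change -0.79 ± 0.25 SE, limma adjusted p = 0.0845). INCENP, the scaffold of the complex, stood at 24.0 ± 6.65 and 21.4 ± 11.02 FPKM and turned from -0.26 to 0.37 on the log2 scale without DMSO 3 and TSN 3. BIRC5 (survivin) stood at 57.8 ± 8.52 and 63.7 ± 23.7 FPKM and turned from 0.09 to -0.31.

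The spindle checkpoint had 0 calls by limma among 5 genes (14.9% of all genes were called), and 0 at an unadjusted p under 0.05 (30.8% of all genes). BUB3, a subunit of the mitotic checkpoint complex, was at 45.85, 43.65 and 41.81 FPKM in DMSO and at 49.23, 43.01 and 47.84 FPKM in TSN, and the 95% interval of its log2 fold change ran from -0.20 to 0.38. MAD2L1, which with BUB3 and BUB1B holds CDC20 in check, stood at 22.5 ± 0.590 and 24.2 ± 2.56 FPKM with an interval of -0.21 to 0.41. These 2 were steady across all 6 libraries. The 3 large checkpoint proteins were not: BUB1B (BUBR1) ranged from 7.90 FPKM in TSN 3 to 30.62 in TSN 2, BUB1 from 11.34 to 29.91 and the kinase TTK (MPS1) from 8.78 to 27.98, each lowest in TSN 3. Their 95% intervals were accordingly wide, from -1.41 to 0.82 for BUB1B, -1.19 to 0.35 for BUB1 and -1.39 to 0.17 for TTK on the log2 scale. Exons of BUB1B share 10.2% of their bases with BUB1B-PAK6 on the same strand.

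At the kinetochore, the NDC80 complex, whose 4 subunits bind microtubules as a rod, had 0 calls by limma and 1, SPC24, at an unadjusted p under 0.05. NDC80 was at 30.04, 31.86 and 33.47 FPKM in DMSO and at 42.52, 45.18 and 29.62 FPKM in TSN 1, 2 and 3, so that TSN 1 and TSN 2 lay above and TSN 3 below the DMSO range (log2 fold change 0.27 ± 0.18 SE with all libraries, 0.49 ± 0.11 SE and limma adjusted p = 0.0215 without DMSO 3 and TSN 3). Without TSN 2 the log2 fold change of NDC80 was 0.16 ± 0.19 SE. Its partner NUF2 held 33.79, 33.01 and 35.13 FPKM in DMSO and 33.91, 34.25 and 20.78 FPKM in TSN, again with TSN 3 alone apart. SPC24 went from 10.3 ± 1.72 to 20.1 ± 7.04 FPKM with TSN 3 highest at 28.01 (log2 fold change 0.86 ± 0.26 SE, limma adjusted p = 0.0760). SPC25 was listed at 0.46 to 4.07 FPKM, far under its partners, and was lowest in DMSO 3 and highest in TSN 3.

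The 3 centromere genes CENPA, CENPE and CENPF had lower values in every TSN library than in any DMSO library, as did 22.9% of all genes. None was called with all libraries. CENPA, the histone variant that marks centromeres, stood at 20.60, 21.61 and 17.34 FPKM in DMSO and 15.05, 13.35 and 12.60 FPKM in TSN 1, 2 and 3, with no overlap (log2 fold change -0.51 ± 0.15 SE, limma adjusted p = 0.0656). CENPF, a large protein of the outer kinetochore, stood at 22.66, 24.09 and 40.70 FPKM in DMSO and 13.10, 21.54 and 6.72 FPKM in TSN 1, 2 and 3. The fitted difference of -1.11 ± 0.42 SE on the log2 scale was the lowest of the members, with a limma adjusted p of 0.134, and it was -0.45 without DMSO 3 and TSN 3. CENPE, a kinetochore motor, stood at 5.95 ± 1.91 and 2.92 ± 1.44 FPKM (-0.86 ± 0.32 SE, limma adjusted p = 0.129) and also lay at -0.38 without them. Without TSN 2, where 16.1% of all genes passed, CENPF lay at -1.48 (limma adjusted p = 0.0383) and CENPE at -1.13 (limma adjusted p = 0.0421).

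**Figure D3:**
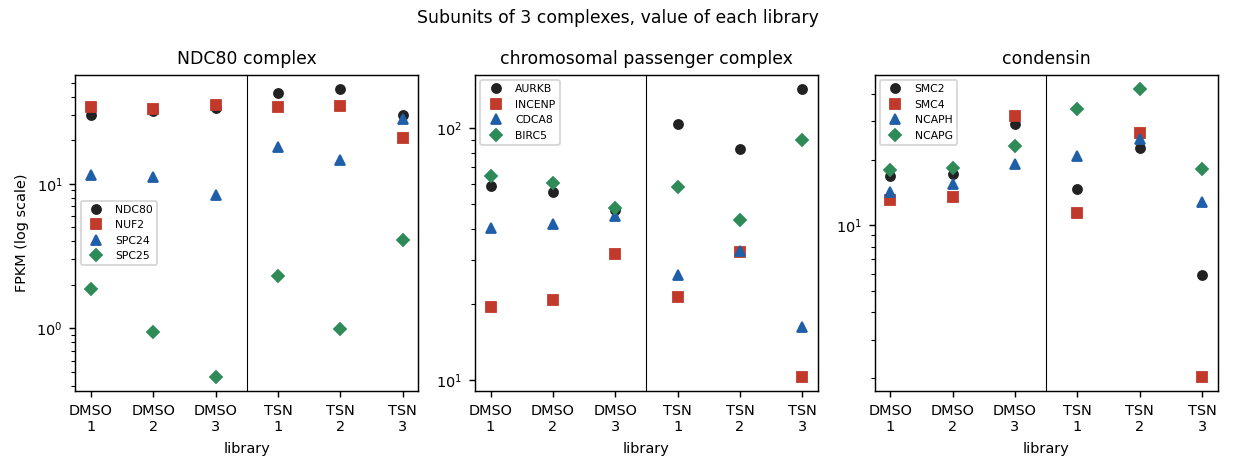
FPKM (log scale) of the subunits of the NDC80 complex, the chromosomal passenger complex and condensin in each of the 6 libraries, with a symbol and colour for each gene. In TSN 3, SPC24 and AURKB are at their highest while INCENP, CDCA8, SMC2 and SMC4 are at their lowest.

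Of the genes of anaphase and mitotic exit, CDC20 fell and UBE2C rose, as described above. PTTG1 (securin), which blocks separase until anaphase, had the highest mean level of the members in TSN, at 103.40, 91.09 and 70.26 FPKM in DMSO and 122.68, 87.71 and 188.78 FPKM in TSN 1, 2 and 3. The groups overlapped and TSN 3 was far above the rest (log2 fold change 0.53 ± 0.30 SE, limma adjusted p = 0.284, and 0.10 without DMSO 3 and TSN 3). ESPL1 (separase), the protease that cuts cohesin, stood at 22.3 ± 3.84 and 20.9 ± 7.79 FPKM (-0.14 ± 0.29 SE), and it turned to 0.27 without them. In cytokinesis, the scaffold ANLN ran from 14.41 FPKM in TSN 3 to 44.41 in TSN 2, and the exchange factor ECT2 from 10.13 to 17.52 between the same libraries. PRC1, which bundles the central spindle, was listed at 0.143 to 0.461 FPKM, failed the filter and was not tested. Exons of PRC1 share 58.4% of their bases with other genes, chiefly AC068831.7 on the same strand.

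Condensin and other chromosome proteins had 0 calls by limma among 6 genes (14.9% of all genes), and 0 at an unadjusted p under 0.05 (30.8% of all genes). NCAPG, a condensin I subunit, was at 18.002, 18.31 and 23.13 FPKM in DMSO and at 34.07, 42.18 and 18.15 FPKM in TSN 1, 2 and 3. TSN 1 and TSN 2 lay above all DMSO libraries and TSN 3 did not (log2 fold change 0.57 ± 0.31 SE, and 1.02 ± 0.13 SE with a limma adjusted p of 0.00562 without DMSO 3 and TSN 3). Without TSN 2 the log2 fold change of NCAPG was 0.33 ± 0.28 SE. Exons of NCAPG share 33.1% of their bases with LCORL on the opposite strand. NCAPH, the kleisin of condensin I, stood at 16.3 ± 2.497 and 19.5 ± 6.21 FPKM. SMC4, an ATPase of both condensins, had the widest range by ratio of the tested members, from 2.02 FPKM in TSN 3 to 31.82 in DMSO 3. Its partner SMC2 ran from 5.96 to 29.16 between the same libraries. Exons of SMC4 share 25.6% of their bases with other genes, chiefly TRIM59 on the opposite strand.

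TOP2A, the topoisomerase that untangles sister chromatids, stood at 55.29, 55.14 and 86.95 FPKM in DMSO and 57.28, 85.89 and 29.04 FPKM in TSN. MKI67 (Ki-67), the usual marker of cycling cells, stood at 45.45, 49.09 and 85.65 FPKM in DMSO and 45.74, 79.93 and 30.68 FPKM in TSN. In both genes DMSO 3 matched TSN 2 more closely than it matched DMSO 1 or DMSO 2. Their log2 fold changes of -0.29 ± 0.41 SE for TOP2A and -0.25 ± 0.40 SE for MKI67 had intervals from -1.26 to 0.69 and from -1.20 to 0.70, and neither difference was larger than the spread between libraries.

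**Figure D4:**
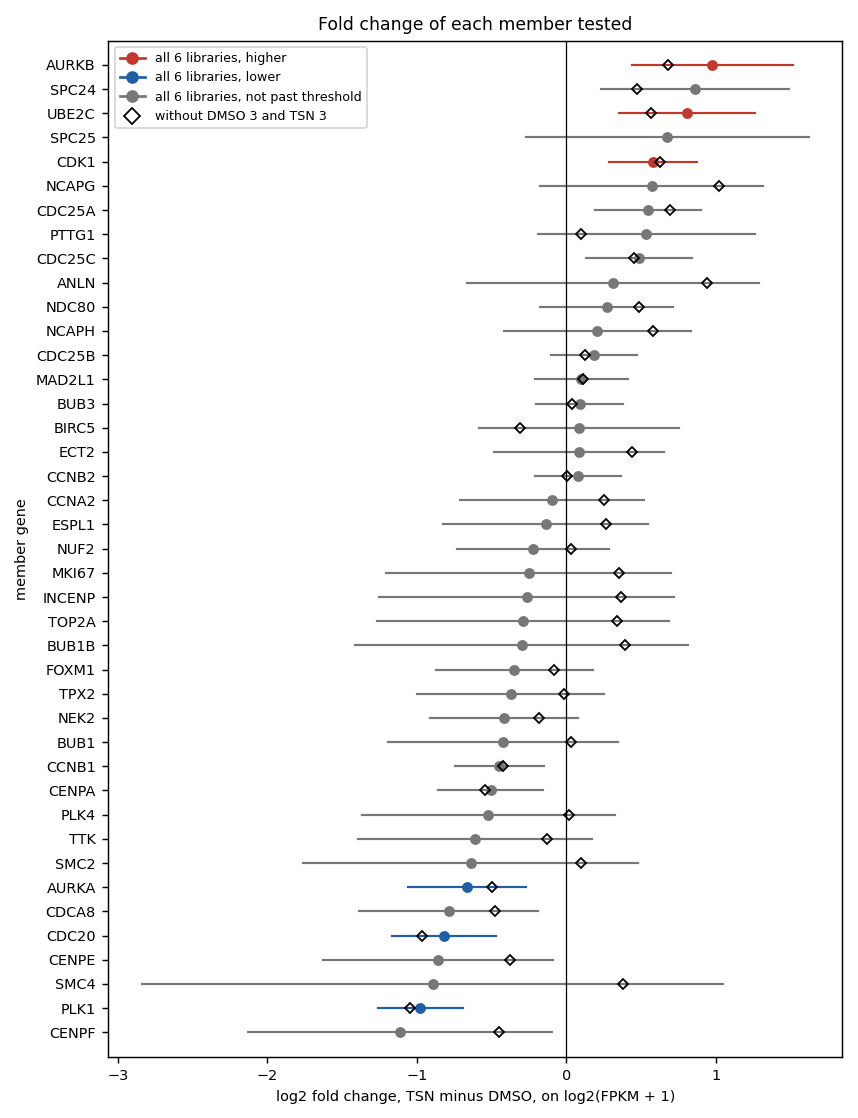
Log2 fold change (TSN minus DMSO, on log2(FPKM + 1)) of the 41 members tested, with filled circles and 95% intervals from all 6 libraries and open diamonds from the fit without DMSO 3 and TSN 3. PLK1, CDC20, AURKA, CDK1, AURKB and UBE2C keep their side of 0, whereas 12 members such as MKI67 and SMC4 change side.

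The members' spread within groups moved with exon length. Over the 41 members tested, the difference of TSN 3 from the other TSN libraries correlated with log2 exon length at r = -0.60, and that of DMSO 3 from the other DMSO libraries at r = 0.77. The same correlations were -0.31 and 0.30 over 11245 genes. For TSN 2, set against the other TSN libraries with TSN 3 among them, r was 0.65 over the members and 0.33 over all genes. These are descriptions across genes of the same libraries. The 10 members with the longest exons (6012 bases or more), such as MKI67, CENPF and CENPE, lay at a median of -1.12 on the log2 scale in TSN 3 and 0.65 in DMSO 3 relative to the other libraries of the group. The 10 shortest (2801 bases or less), such as UBE2C, PTTG1 and CDC20, lay at 0.14 and -0.25. In TSN 2 the 10 longest lay at 1.04 and the 10 shortest at -0.16. BUB3, at 8300 bases one of the long members, lay at 0.05 in TSN 3 and -0.10 in DMSO 3. The deviations of DMSO 3 and TSN 2 from their group means ran together over the members (r = 0.96, n = 41) and those of DMSO 3 and TSN 3 ran opposite (r = -0.94). Deviations from a group mean cancel out within the group, so these correlations are not independent of each other.

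Leaving out DMSO 3 and TSN 3 gave 15 calls among 40 members tested, 9 higher and 6 lower, where 27.6% of all genes passed. These libraries stood apart within their groups in these same data, so this fit is no independent check of the calls. The 6 called members kept their calls, and CDC25A, NDC80, SPC24, NCAPG, NCAPH and ANLN joined as higher and CCNB1, CDCA8 and CENPA as lower. That fit keeps TSN 2. With TSN 2 alone left out, SPC24 and CDCA8 passed by limma and the other joining members did not. There NCAPG lay at 0.33, NDC80 at 0.16, NCAPH at 0.01 and ANLN at -0.02. Removal of the trends of each library with length and GC, a step chosen after the data were seen, gave 13 calls among 41, 6 higher and 7 lower, where 26.2% of all genes passed. The same 6 kept their calls there, joined by CDC25A, CDC25C and SPC24 as higher and CCNB1, CENPA, CENPE and CENPF as lower. Under both choices PLK1 (-1.05 and -1.09) and CDK1 (0.63 and 0.68) moved little from their values with all libraries. The part of exon length in the fold changes of the long members was not tested further.

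**Figure D5:**
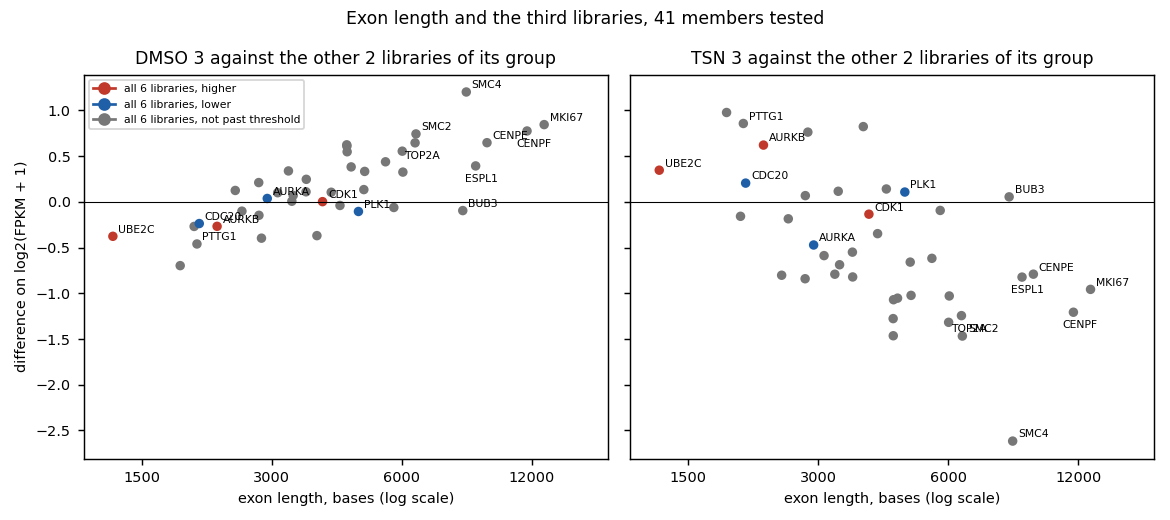
Exon length of the 41 members tested (log scale, bases) against the difference of DMSO 3 (left) and TSN 3 (right) from the mean of the other 2 libraries of the group on log2(FPKM + 1), with the 6 called members in colour. Long members such as SMC4 and CENPF lie above 0 in DMSO 3 and below 0 in TSN 3, and PLK1 and CDK1 lie near 0 in both.

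Of 106 further genes of mitosis in 7 lists, 101 were tested, and 4 rose and 2 fell, against 14.9% of all genes. Their median log2 fold change was -0.18. Among 17 genes of the APC/C and its regulators, 2 core subunits fell: CDC16 went from 60.4 ± 0.534 to 29.9 ± 4.75 FPKM (-1.004 ± 0.15 SE, limma adjusted p = 0.00969) and ANAPC15, which helps release the checkpoint, from 14.3 ± 1.82 to 8.08 ± 0.844 FPKM (-0.75 ± 0.16 SE, limma adjusted p = 0.0267). Exons of ANAPC15 share 27.1% of their bases with other genes. Of 10 genes of MuvB, B-MYB and DREAM, MYBL2, which encodes B-MYB, rose from 252.69, 247.36 and 211.45 FPKM in DMSO 1, 2 and 3 to 437.19, 378.88 and 569.44 FPKM in TSN 1, 2 and 3 (0.94 ± 0.20 SE, limma adjusted p = 0.0259). Like AURKB, it was lowest in DMSO 3 and highest in TSN 3.

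Of 29 other kinetochore and centromere genes tested, CENPH rose, with 24.2 ± 3.72 FPKM in DMSO and 52.3 ± 13.1 FPKM in TSN (1.06 ± 0.22 SE, limma adjusted p = 0.0269) and CENPI from 2.94 ± 0.752 to 7.98 ± 3.05 FPKM (1.15 ± 0.29 SE, limma adjusted p = 0.0452), both parts of the constitutive centromere network. ENSA, a phosphatase inhibitor that protects CDK1 substrates, rose and stood at 52.7 ± 3.63 FPKM with DMSO and 78.7 ± 3.90 FPKM with TSN (0.57 ± 0.12 SE, limma adjusted p = 0.0281), the single call among 13 other regulators of mitotic entry. Cohesin and its regulators (14 genes), the other condensin subunits (4) and the other spindle and cytokinesis genes (14) had 0 calls by limma, with 2, 1 and 0 genes at an unadjusted p under 0.05. Across the 7 lists limma made 0 calls without DMSO 1, DMSO 2, DMSO 3 or TSN 1, where 2.78%, 2.20%, 3.91% and 0.217% of all genes passed. In these fits 11, 10, 9 and 11 genes of the lists stood at an unadjusted p under 0.05. Without TSN 3, 15 of the 101 passed, where 22.6% of all genes did.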

How the data were processed

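RNA-seq libraries of MOLM-13 cells, 3 in DMSO and 3 in TSN, were compared. The authors deposited 1 table of 30741 genes in FPKM. The unit is not written in the file header and was read from the values. GRCh38 and DESeq2 1.26.0 are named in the submitters' processing notes, while sources used here do not name the aligner, counter, annotation or use of strand. FPKM were tested with limma 3.58.1 (R 4.3.3) on log2(FPKM + 1), moderating variances robustly along a trend, for 11440 genes that reached 1 FPKM in 3 or more libraries, and p-values were adjusted by Benjamini-Hochberg. Fold changes on this scale understate changes of low genes. Depth was estimated from single-exon genes, where value times length fell on whole multiples of 1 step (95.4% to 97.2% of low values, tolerance 0.1 fragments). Counts rebuilt from these values for the closest pair, DMSO 1 and 2, differed beyond counting error (15153 genes, chi-square divided by its degrees of freedom 10.2) so both were kept as samples. GENCODE 29 (GRCh38) gave gene places, exon lengths and overlaps and held 93.7% of the genes. Every member is named, further genes of each list are named where they passed (up to 2 in each direction), and promoters were shown for called members. The members, lists and tests were chosen with earlier results of these data known. The procedure was tested on simulated data. Alternatives covered pseudocounts, filters, scaling, moderation, library weights, a replicate block and each library left out. They also covered leaving out DMSO 3 with TSN 3, which stood apart within their groups in these data. Removal of length and GC trends (splines of 5 degrees of freedom) was chosen after the data were seen. pandas 2.3.3, numpy 2.4.6 and matplotlib 3.10.9 were used in Python 3.11.15.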

Additional observations from a re-analysis of the deposited data

How the results depend on the processing

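The 6 called members kept their direction in every alternative that held them, and the counts of calls moved more. Among the members, calls numbered 1 with no filter on low values, 15 with DMSO 3 and TSN 3 both left out, 13 with exon length and GC trends removed, and 31 with library weights, whose estimation stopped short of its tolerance. With 1 library left out they ran from 0 to 11. Over all genes the counts were 777 with no filter, 1002 when only genes averaging 5 FPKM or more were kept, 2978 with DMSO 3 and TSN 3 both left out, 2949 with length and GC trends removed, 8161 with library weights, and 24 to 2513 with 1 library left out. For the other mitotic genes, 6 in the full fit, they were 1 with no filter, 10 with median log ratio scaling, 11 with quantile normalization, 21 with DMSO 3 and TSN 3 both left out, 17 with length and GC trends removed, 62 with library weights, and 0 to 15 with 1 library left out. CDC20 and AURKB lost their calls under median log ratio scaling, and CDK1 and UBE2C under quantile normalization. The members' median of -0.22 was 0.10 with DMSO 3 and TSN 3 both left out. The causes were not tested.

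With the replicate number as a block, limma called 0 members, 0 other mitotic genes and 0 genes over all 11440, with 9, 9 and 2121 at an unadjusted p under 0.05. Same-numbered libraries deviated in opposite directions (r = -0.32, -0.65 and -0.83 over 11440 genes for numbers 1, 2 and 3). Deviations of single libraries also moved with exon length, so these correlations cannot show whether same-numbered libraries were prepared together.

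Some members that did not pass changed sign. With DMSO 3 and TSN 3 both left out, the log2 fold change was 0.26 for CCNA2, 0.02 for PLK4, 0.37 for INCENP, -0.31 for BIRC5, 0.03 for BUB1, 0.39 for BUB1B, 0.03 for NUF2, 0.27 for ESPL1, 0.10 for SMC2, 0.38 for SMC4, 0.34 for TOP2A and 0.35 for MKI67. With library weights it was 0.15 for CCNA2, 0.04 for INCENP, -0.06 for BIRC5, 0.02 for NUF2 and 0.01 for TOP2A, and quantile normalization gave 0.02 for CCNA2. With 1 library left out, values ran from -0.28 to 0.19 for CCNA2, -0.62 to 0.16 for INCENP, -0.19 to 0.33 for BIRC5, -0.73 to 0.19 for BUB1B, -0.34 to 0.00 for NUF2, -0.39 to 0.14 for ESPL1, -0.02 to 0.75 for ANLN, -0.07 to 0.29 for ECT2, -0.64 to 0.12 for TOP2A and -0.61 to 0.07 for MKI67. The data hold 3 libraries a group and no measure of cells in mitosis.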

Other observations

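Ratios of 2 members within a library do not depend on the library's scaling, but they can carry its trend with exon length. The pairs were picked here after their values were seen, so the ratios are descriptions with no test. CDK1 stood at 1.85, 1.63 and 1.87 times the FPKM of PLK1 in DMSO 1, 2 and 3 and at 5.94, 5.46 and 4.79 times in TSN 1, 2 and 3. AURKB stood at 0.803, 0.761 and 0.631 times the FPKM of AURKA in DMSO and at 2.06, 1.56 and 3.87 times in TSN, so the order of the aurora kinases turned in all 3 TSN libraries. CCNB2 was at 0.561, 0.588 and 0.556 times CCNB1 in DMSO and at 0.762, 0.787 and 0.926 times in TSN. NUF2 was at 1.12, 1.04 and 1.05 times NDC80 in DMSO and at 0.797, 0.758 and 0.701 times in TSN, although neither subunit passed by itself. By contrast, the ratio of SMC2 to SMC4 ran from 0.916 to 1.29 in DMSO and from 0.852 to 2.95 in TSN, and the groups overlapped. They also overlapped for SPC24 to NDC80 (0.249 to 0.383 in DMSO, 0.321 to 0.946 in TSN). The same held for BUB3 to BUB1B (1.52 to 2.72 in DMSO, 1.40 to 6.06 in TSN). The groups did not overlap for AURKB to CDCA8, CDC25A to CDC20, UBE2C to CDC20 and NCAPG to NCAPH.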
